A study of Mus musculus with 12 samples.

Results

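The cytosolic sulfotransferase genes of mouse liver were measured at the end of the first month of calorie restriction (CR). A set of 10 genes was taken by symbol from the deposited expression table of 24537 genes, namely Sult1a1, Sult1b1, Sult1c2, Sult1d1, Sult1e1, Sult2a1, Sult2a2, Sult2a7, Sult3a1 and Sult5a1, and all 10 symbols were present. Another 11 cytosolic sulfotransferase genes are listed in the table and served for comparison. Liver RNA-Seq came from 12 male C57Bl/6J mice, housed singly and 6 weeks old at the start, with 3 mice in each of 4 groups. Control (Con) mice ate an NIH41 diet ad libitum, and CR mice ate a fortified NIH41 diet at 30% less than the ad libitum group, handed out once a day, for 25 or 30 days. All mice drank heavy water for some days before they were killed, so both arms share that label. Levels are given as FPKM, in which exonic reads are scaled to exon length and to library size, and the depth was 15748742 to 23345751 reads per library. The tissue label was checked with 10 hepatocyte markers, albumin among them, whose summed FPKM ran from 42620 to 70328 across the libraries.

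Cytosolic sulfotransferases move a sulfonate group from the donor PAPS onto the hydroxyl or amine groups of hormones, bile acids, neurotransmitters and drugs, which makes them more water soluble and usually inactive. The 1 family acts mainly on phenols, among them catecholamines, thyroid hormone and estrogens, while the 2A family acts on steroids and bile acids and the 3A family on amines. In mouse liver several of these genes are known to differ between the sexes, with Sult2a1, Sult2a2 and Sult3a1 higher in females. All mice here were male.

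Sult1b1, Sult1d1 and Sult1e1 lie side by side on the minus strand of chromosome 5 in the mm10 build, at chr5:87513339-87538195, chr5:87554650-87569006 and chr5:87575968-87591611. Sult2a2 (chr7:13733506-13779637, plus strand), Sult2a1 (chr7:13796246-13837410, minus strand) and Sult2a7 (chr7:14465159-14492926, minus strand) belong to the Sult2a cluster of chromosome 7. Sult1a1 (chr7:126672870-126676357), Sult1c2 (chr17:53829637-53845958) and Sult5a1 (chr8:123142847-123158280) lie on the minus strand, and Sult3a1 (chr10:33857722-33879475) on the plus strand.

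The 250 bases upstream of the start site are shown for 4 genes whose levels the results turn on: Sult1d1, the phenol sulfotransferase that was higher under CR at both days, Sult1e1 and Sult3a1, which were nearly silent in Con livers, and Sult5a1, which was lower under CR at day 30. They are RefSeq sequences of GRCm38, the assembly also called mm10, written 5′ to 3′ on the strand of the gene, and capitals mark matches to 1 of 3 motifs searched on both strands. RefSeq promoters were at hand for 7 of the 10 genes.
Sult1d1, chr5:87569007-87569256, minus strand: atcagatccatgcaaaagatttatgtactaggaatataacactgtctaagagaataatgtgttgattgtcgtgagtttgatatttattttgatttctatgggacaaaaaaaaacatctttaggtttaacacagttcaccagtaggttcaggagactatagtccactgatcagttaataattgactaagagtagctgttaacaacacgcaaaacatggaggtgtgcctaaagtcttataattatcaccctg
Sult1e1, chr5:87591612-87591861, minus strand: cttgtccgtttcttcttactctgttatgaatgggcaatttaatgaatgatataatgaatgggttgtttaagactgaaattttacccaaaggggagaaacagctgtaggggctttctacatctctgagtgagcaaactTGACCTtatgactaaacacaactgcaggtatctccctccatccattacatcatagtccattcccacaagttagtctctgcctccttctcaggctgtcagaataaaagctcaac
Sult3a1, chr10:33857472-33857721, plus strand: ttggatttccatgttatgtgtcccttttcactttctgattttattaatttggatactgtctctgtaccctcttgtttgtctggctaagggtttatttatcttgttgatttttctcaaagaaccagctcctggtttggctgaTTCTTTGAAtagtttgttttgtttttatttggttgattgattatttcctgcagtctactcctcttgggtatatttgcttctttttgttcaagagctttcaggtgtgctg
Sult5a1, chr8:123158281-123158530, minus strand: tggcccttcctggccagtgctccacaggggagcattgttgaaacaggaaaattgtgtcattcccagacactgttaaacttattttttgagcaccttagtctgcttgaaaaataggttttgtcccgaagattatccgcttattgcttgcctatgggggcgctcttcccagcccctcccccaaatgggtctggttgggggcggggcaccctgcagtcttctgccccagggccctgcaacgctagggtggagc
The motifs were AGGTCA, the core hexamer bound by many nuclear receptors, TTCNNNGAA, the site of STAT5, and TGTTTAC, a forkhead site. Sult1e1 holds AGGTCA on the opposite strand at positions -113 to -108 relative to its start site, and the promoter at the annotated start of Sult1b1 holds it at positions -123 to -118. Sult3a1 holds TTCNNNGAA at positions -109 to -101. Of all 32851 promoters in the table, 14.0% hold AGGTCA, 7.02% hold TTCNNNGAA and 3.17% hold TGTTTAC in the same window, and no match to TGTTTAC was found in the sulfotransferase promoters. A match is a description of the letters and no evidence of binding.

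Near-identical copies were checked for each gene. Of the stretches of 100 bases, the read length, in the reference transcript of Sult2a2, 34.6% also occur in a transcript of another gene (Sult2a1, Sult2a4 or Sult2a5), and for Sult2a1 the share is 11.4%. The transcripts of these 2 genes are 98.5% identical over 525 aligned bases, so their reads could have been split between copies. Sult2a7 shares no such stretch with any other gene and is 74.8% identical to Sult2a1 over 889 bases. Sult1a1 shares 2.20% of its stretches with a predicted gene, and the remaining 6 genes share none.

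Among the 10 genes, Sult1a1, the general phenol sulfotransferase, had the highest level. In the 6 Con mice the mean FPKM of Sult1a1 was 238 ± 69.0 (SD, n = 6), and that of Sult1d1, which sulfonates dopamine and other catecholamines, was 51.1 ± 11.7. Sult5a1 followed at 7.84 ± 1.49 and Sult1b1, which acts on thyroid hormone and small phenols, at 7.27 ± 2.25, and these neighbours overlapped. Sult1c2, another phenol sulfotransferase, was at 2.96 ± 1.01 and Sult2a7 at 1.58 ± 0.722, again with overlap. Sult1e1, the estrogen sulfotransferase, was at 0.132 ± 0.101 FPKM and Sult3a1, an amine sulfotransferase, at 0.0228 ± 0.0364, with 8 libraries of 12 holding any Sult3a1 read. Sult2a2 was at 0.0222 ± 0.0543 in Con livers and Sult2a1 at 0 in all 6, and each had reads in 3 of the 12 libraries. Levels of the last 4 genes overlapped among the Con mice, whereas every step at Sult1a1, Sult1d1, Sult1b1 and Sult2a7 down to the next gene separated all 6 Con values.

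**Figure D1:**
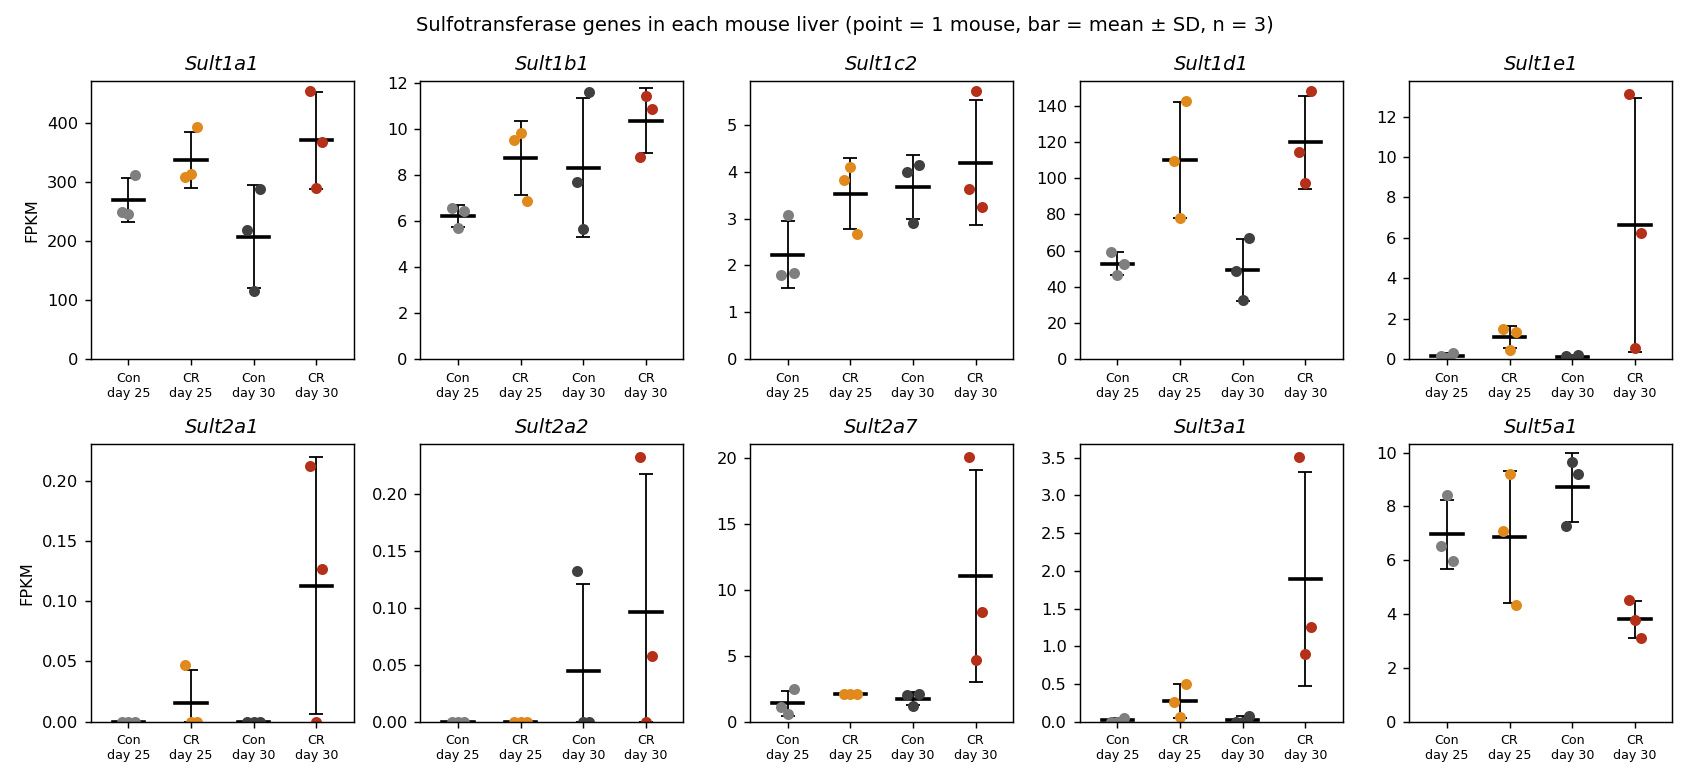
FPKM of the 10 sulfotransferase genes in each of the 12 mice, with 1 panel per gene and its own linear axis from 0; points are mice, the thick line is the mean of 3 and the thin bar is 1 SD, cut at 0 where it would fall below. The 3 CR mice lie above the 3 Con mice at both days for Sult1d1 and Sult1e1 and at day 30 for Sult3a1, and the CR mice at day 30 lie below for Sult5a1.

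Summed over the 10 genes, sulfotransferase mRNA was 339 ± 37.9 FPKM (SD, n = 3) in Con and 471 ± 72.7 in CR mice at day 25, and 279 ± 108 in Con and 529 ± 106 in CR mice at day 30. At day 25, 79.4% of this sum in Con and 71.8% in CR mice was Sult1a1, and 15.6% and 23.4% was Sult1d1. At day 30 the shares of Sult1a1 were 74.2% and 70.1%, and those of Sult1d1 17.7% and 22.7%. The sum and shares leave out Sult2a8, which is outside the set and about as abundant as Sult1a1. Sult2a8 was at 255 ± 60.4 FPKM in Con and 284 ± 93.1 in CR mice at day 25, and at 342 ± 53.7 and 251 ± 96.3 at day 30. They therefore describe the 10 genes and not all sulfotransferase mRNA. Because the samples were pieces of whole tissue, a change in the share of hepatocytes and a change of mRNA within them cannot be told apart. The summed FPKM of the 10 hepatocyte markers was itself higher in CR mice, 59358 to 62206 against 50944 to 57802 in Con mice at day 25, and 60918 to 70328 against 42620 to 51778 at day 30. Taken singly, 2 of the 10 markers rose and 0 fell at day 25, and 3 rose and 1 fell at day 30. Their median log2 fold changes were 0.14 and 0.10, beside -0.04 and -0.07 for all genes tested. Of all genes tested, 14.9% and 24.7% passed in either direction. The part of the hepatocyte share in the sulfotransferase values was not tested.

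The first question was which sulfotransferase genes had responded by day 25, before the time at which the study places a transition in liver protein synthesis. Sult1d1 had risen, and it was the only gene of the family past the test. Sult1b1 and Sult1e1 also had all 3 CR mice above all 3 Con mice, with differences that did not pass. Sult5a1 and Sult2a7 had overlapping groups.

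At day 25 Sult1d1 was at 59.1, 46.5 and 52.8 FPKM in the Con mice and at 109.7, 78.3 and 142.7 FPKM in the CR mice. Every CR mouse was above every Con mouse, and the ratio of the means was 2.09. The log2 fold change of FPKM + 1 was 1.01 (SE 0.258, limma adjusted p = 0.0300). Without the highest CR mouse, replicate 3, it was 0.81 and no longer passed (adjusted p = 0.115).

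Sult1a1 at day 25 was at 249.7, 246.3 and 312.4 FPKM in Con and at 308.3, 313.1 and 393.3 in CR mice. The groups overlapped and the difference did not pass (log2 fold change 0.33, 95% interval -0.27 to 0.92, adjusted p = 0.50). Sult1b1 had Con values of 6.55, 5.68 and 6.43 and CR values of 9.51, 9.82 and 6.88 FPKM, which did not overlap, with a log2 fold change of 0.42 (SE 0.198, adjusted p = 0.212). Sult1c2 was at 1.79, 3.07 and 1.83 in Con and 3.83, 4.10 and 2.67 in CR mice, and its log2 fold change was 0.50 (SE 0.201, adjusted p = 0.148). For both genes the ratio of means, 1.40 and 1.58, was modest beside that of Sult1d1.

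Sult1e1 at day 25 was at 0.130, 0.0440 and 0.285 FPKM in Con mice, which is 3, 1 and 6 reads, and at 1.47, 0.457 and 1.35 FPKM in CR mice, which is 39, 9 and 34 reads. The groups did not overlap, and the ratio of pooled reads scaled to depth was 7.71 with a 95% counting interval of 3.99 to 16.7, which covers counting error only. On the log2(FPKM + 1) scale, where low genes are compressed, the fold change was 0.83 (SE 0.566, adjusted p = 0.401). Sult3a1 had 0, 0 and 1 reads in Con and 6, 1 and 11 reads in CR mice, a ratio of 16.9 with a counting interval of 2.67 to 705. The highest Con and the lowest CR mouse each held 1 read, and their FPKM of 0.055 and 0.058 differ by depth alone. The Sult2a7 values were 1.10, 0.612 and 2.47 FPKM in Con and 2.07, 2.07 and 2.07 in CR mice. These CR values rest on 39, 29 and 37 reads and lie inside the Con range.

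A gene entered the test when 3 or more libraries reached an FPKM of 1, and 7 of the 10 did. Of these, 1 passed an adjusted p under 0.1 at day 25, against 14.9% of all 10593 genes tested. When a 2-fold change, 1 on the log2 scale, was asked for as well, the same gene passed, against 1.48% of all genes. The CR mice lay wholly above the Con mice for 3 of these 7 genes, and groups that did not overlap were found for 28.2% of all genes tested. Sult1e1 is 1 of those 3 and cleared the filter through CR mice alone, so its separation was favoured by the filter. Without Sult1e1, 1 of 6 genes passed the adjusted p. The median log2 fold change of the 7 genes, Sult1e1 included, was 0.43, beside -0.04 for all genes tested. Sult2a1, Sult2a2 and Sult3a1 did not pass the filter.

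At day 30, Sult1a1, Sult1d1, Sult1e1 and Sult2a7 were higher under CR by the test, Sult5a1 was lower, and Sult1b1 and Sult1c2 did not pass. Among the genes that rose were the most abundant of the set, Sult1a1, and Sult1e1, which was close to silent in Con livers. The 3 CR mice differed widely from each other in Sult1e1, Sult2a7 and Sult3a1.

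Among the phenol sulfotransferases, Sult1d1 was at 48.7, 32.6 and 66.8 FPKM in the Con mice of day 30 and at 114.3, 97.4 and 148.0 in the CR mice. The groups were again apart, with a ratio of means of 2.43 and a log2 fold change of 1.30 (SE 0.258, adjusted p = 0.00572). Sult1a1 was at 219.4, 114.6 and 287.8 FPKM in Con and at 454.7, 290.3 and 368.5 in CR mice. The lowest CR value stood just above the highest Con value, and the ratio of means was 1.79. Its log2 fold change of 0.91 (SE 0.275, adjusted p = 0.0405) rested on single mice: it was 0.54 (adjusted p = 0.112) without the lowest Con mouse, library Con11, and 0.75 (adjusted p = 0.156) without CR replicate 1.

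Sult1b1 at day 30 was at 7.70, 5.66 and 11.6 FPKM in Con and 8.79, 11.4 and 10.9 in CR mice, with a log2 fold change of 0.33 (SE 0.198, adjusted p = 0.274). The Con mice spanned the whole CR range for this gene. Without library Con12, the highest Con mouse, the value was 0.57 and passed (adjusted p = 0.0473). Sult1c2 was at 3.99, 2.90 and 4.15 in Con and 3.62, 5.72 and 3.24 in CR mice, with a log2 fold change of 0.13 (95% interval -0.31 to 0.57, adjusted p = 0.689).

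Sult1e1, which inactivates estrogens by sulfonation, was at 0.156, 0 and 0.177 FPKM in the Con mice of day 30, or 4, 0 and 5 reads. In the CR mice it was at 13.1, 0.535 and 6.24 FPKM, or 382, 13 and 182 reads. All CR mice were above all Con mice, but CR replicates 1 and 3 were far above replicate 2, which lay within the range of the CR mice of day 25. The ratio of mean FPKM was 59.7, and that of pooled reads scaled to depth 62.4 with a counting interval of 32.6 to 137. The log2 fold change of FPKM + 1 was 2.28 (SE 0.566, adjusted p = 0.0181), 1.59 without CR replicate 1 (adjusted p = 0.0636) and 3.19 without CR replicate 2 (adjusted p = 8.4e-05). Sult1e1 cleared the filter for the test through CR mice alone, so the values per mouse describe it better than its call.

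Sult2a7, of the hydroxysteroid family, was at 2.03, 1.16 and 2.09 FPKM in Con and at 20.1, 4.68 and 8.34 FPKM in CR mice at day 30, which is 37, 22 and 42 reads against 417, 81 and 173. The groups were apart, and the ratio of means was 6.27. The log2 fold change was 1.93 (SE 0.382, adjusted p = 0.00572), and 1.42 without CR replicate 1 (adjusted p = 0.0139). Its relatives Sult2a1 and Sult2a2 stayed near 0: Sult2a1 had no read in Con mice and 5, 0 and 3 reads in CR mice of day 30, and the groups overlapped. With the Con group set to a floor of 3 reads the ratio was 2.60, which leaves out the counting error of the CR reads and is no lower bound. Sult2a2 had 2, 0 and 0 reads in Con and 4, 0 and 1 reads in CR mice, a ratio of 2.43 with a counting interval of 0.398 to 25.6.

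The summed Sult2a level did not follow Sult2a7. The abundant Sult2a gene of these livers was Sult2a8, outside the set, known to sulfonate bile acids, at 342 ± 53.7 FPKM in Con and 251 ± 96.3 in CR mice at day 30 (SD, n = 3, log2 fold change -0.51, adjusted p = 0.269). The FPKM of Sult2a1, Sult2a2 and Sult2a7 together had a ratio of CR to Con means of 1.50 at day 25 and 6.23 at day 30, while with every Sult2a gene of the table the ratios were 1.12 and 0.762. Within the CR mice of day 30, Sult2a8 was lowest, at 153.8 FPKM, in replicate 1, where Sult2a7 was highest, and highest, at 346.3 FPKM, in replicate 2, where Sult2a7 was lowest. Of the other cytosolic sulfotransferase genes in the table, only Sult2a8 passed the filter on low FPKM.

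Sult3a1, the amine sulfotransferase, had 0, 0 and 2 reads in the Con mice of day 30 and 89, 19 and 32 reads in the CR mice, or 3.51, 0.899 and 1.26 FPKM. Every CR mouse was above every Con mouse, and the ratio of pooled reads scaled to depth was 68.1 with a counting interval of 18.5 to 568. The gene missed the filter for the test. With the filter lowered to an FPKM of 0.1 in at least 3 libraries it passed at day 30, with a log2 fold change of FPKM + 1 of 1.39 (SE 0.244, adjusted p = 0.00463), where 19.4% of all genes tested passed. A gene that clears a filter through the group where it is high had to differ, so the values per mouse are the better description.

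Sult5a1 moved the other way. It was at 7.25, 9.65 and 9.21 FPKM in the Con mice of day 30 and at 4.51, 3.80 and 3.13 in the CR mice. No CR mouse reached the lowest Con mouse, the ratio of means was 0.438, and the log2 fold change was -1.01 (SE 0.208, adjusted p = 0.00674). At day 25 its values had been 6.51, 8.41 and 5.98 in Con and 7.09, 9.21 and 4.32 in CR mice, a log2 fold change of -0.06 (95% interval -0.51 to 0.40).

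**Figure D2:**
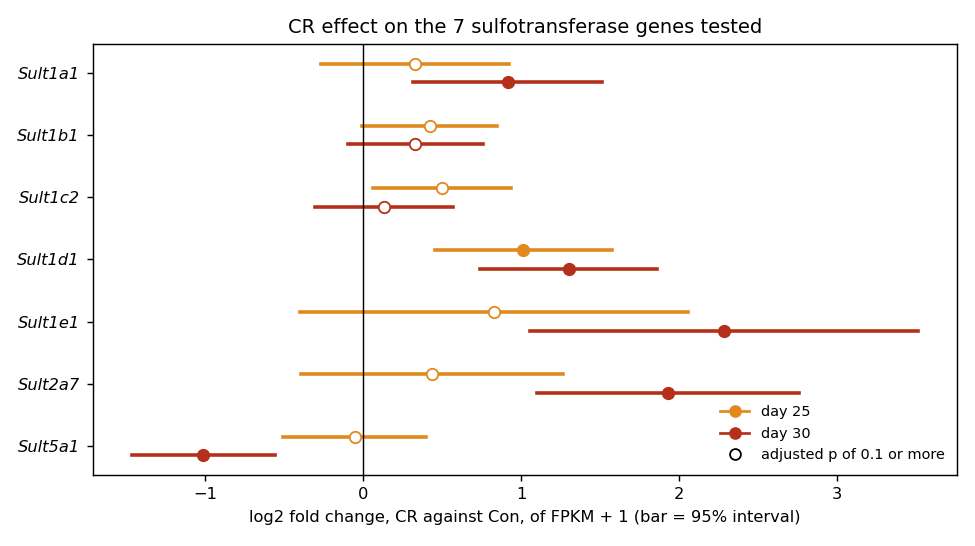
Log2 fold changes of FPKM + 1 for CR against Con at day 25 and day 30 in the 7 sulfotransferase genes tested, with 95% intervals from limma; filled points passed an adjusted p under 0.1. At day 30 the intervals of Sult1a1, Sult1d1, Sult1e1 and Sult2a7 lie above 0 and that of Sult5a1 below, and at day 25 only Sult1d1 is filled.

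At day 30, 5 of the 7 genes tested passed an adjusted p under 0.1, 4 upward and 1 downward, against 24.7% of all genes tested. Without Sult1e1, which entered the test only through CR mice, 4 of 6 passed, 3 upward and 1 downward. Asking also for a 2-fold change, 3 rose and 1 fell, against 2.21% of all genes. The groups did not overlap for 5 of the 7, against 36.4% of all genes. Both the 2-fold and the non-overlap counts include Sult1e1. The median log2 fold change of the 7, Sult1e1 included, was 0.91, beside -0.07 for all genes tested. The other 6 had log2 fold changes of -1.01, 0.13, 0.33, 0.91, 1.30 and 1.93.

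Fitted over both days with day as a covariate, CR raised Sult1a1, Sult1b1, Sult1d1, Sult1e1 and Sult2a7 and lowered Sult5a1, so 6 of 7 genes passed, against 40.6% of all genes tested. Sult1e1 is among these 6, although it entered the test only through CR mice, so its call was favoured by the filter. Sult1d1 had the smallest adjusted p, with a log2 fold change of 1.16 (SE 0.180, adjusted p = 0.000496). Sult1b1 passed with 0.37 (SE 0.135, adjusted p = 0.0505) and Sult5a1 with -0.53 (SE 0.194, adjusted p = 0.0505). Sult1b1 had passed at neither day alone, and Sult5a1 only at day 30. Sult1c2 did not pass (0.31, adjusted p = 0.118). With the lower filter, which Sult3a1 clears only through CR mice, its log2 fold change was 0.85 (SE 0.224, adjusted p = 0.0157), and 34.0% of all genes passed.

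An exact permutation test that exchanged CR and Con labels within each day was run for each of the 10 genes, with 400 arrangements and a smallest possible 2-sided p of 0.005. That smallest p of 0.005 was reached by Sult1d1, Sult1e1 and Sult3a1, for which 6 of 6 CR mice lay above every Con mouse of their day by FPKM, with a tie at 1 read for Sult3a1 at day 25. The exact permutation p was 0.015 for Sult1a1, with 5 of 6 CR mice above, 0.02 for Sult2a7, with 3 of 6, and 0.045 for Sult1b1, with 3 of 6. It was 0.055 for Sult5a1, 0.105 for Sult1c2, 0.2 for Sult2a1 and 0.7 for Sult2a2. These p-values are not adjusted for the number of genes.

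Whether the effect of CR itself changed between the days was tested as an interaction. Sult2a7 and Sult1e1 had larger effects at day 30 by 1.50 (95% interval 0.32 to 2.67) and 1.45 (-0.28 to 3.19) on the log2 scale, and Sult5a1 a lower one by -0.96 (-1.60 to -0.32). None of the 7 genes passed an adjusted p under 0.1 in limma (adjusted p = 0.9995 for each), against 0.00944% of all genes tested. At an unadjusted p under 0.05, 2 genes passed, Sult5a1 and Sult2a7, while voom on the recovered reads gave 0 after adjustment and 1 before. Sult1d1 had effects of 1.01 at day 25 and 1.30 at day 30. Their difference was 0.29 with an interval from -0.50 to 1.08, too wide to show that they were equal.

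The same genes were compared between days within each arm. In CR mice, Sult2a7 was higher at day 30 by 1.76 on the log2 scale (SE 0.382, adjusted p = 0.107), Sult1e1 by 1.40 (SE 0.566, adjusted p = 0.487) and Sult5a1 had -0.67 (SE 0.208, adjusted p = 0.320). None passed in limma, against 0.321% of all genes, although 3 passed unadjusted, and voom gave 0 after adjustment and 2 before. Without CR replicate 2 of day 30, Sult1e1 (2.31, adjusted p = 0.0109) and Sult2a7 (2.19, adjusted p = 0.0615) both passed. In Con mice 0 of the 7 genes passed, against 0.0% of all genes, 1 passed unadjusted, namely Sult1c2 with a log2 difference of 0.55, and voom gave 0 and 1.

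The spread among the CR mice of day 30 was shared by part of the family. Sult1a1, Sult1e1, Sult2a1, Sult2a2, Sult2a7 and Sult3a1 all had their highest value in CR replicate 1, the next in replicate 3 and the lowest in replicate 2, while Sult1b1 ran from replicate 2 down to replicate 1. Over the 12 libraries, with each value taken as its deviation from the mean of its group on the log2(FPKM + 1) scale, Pearson's r was 0.838 for Sult1e1 with Sult3a1, 0.812 for Sult1e1 with Sult2a7 and 0.801 for Sult2a7 with Sult3a1. Sult1a1 and Sult1d1 had an r of 0.749, and Sult1d1 and Sult5a1 one of -0.644. These are descriptions of 12 mice, in which a few CR mice carry most of the spread of the low genes.

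**Figure D3:**
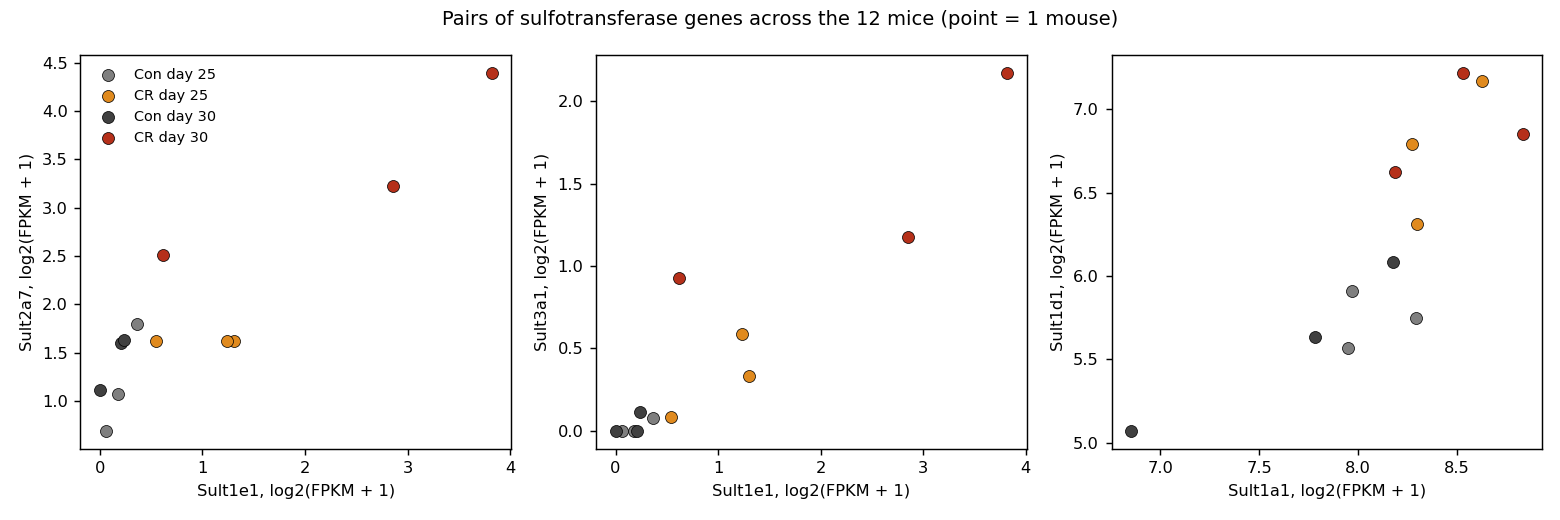
Pairs of sulfotransferase genes across the 12 mice on the log2(FPKM + 1) scale, 1 point per mouse, coloured by group. The CR mice of day 30 have the highest Sult2a7 and Sult3a1 values, with replicate 1 highest on every axis of the left and middle panels, and Sult1a1 and Sult1d1 rise together across Con and CR mice.

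For each of the 5 genes that passed at day 30, the non-sulfotransferase genes with the most similar profile over the 12 libraries were taken. Sult1a1 was most like Gm5424 (r = 0.967) and Ass1, the urea cycle enzyme argininosuccinate synthase (r = 0.955), and stayed so within groups (0.953 and 0.945). Sult1d1 was most like Cyp39a1, an oxysterol hydroxylase, and Fmo1, a flavin monooxygenase, with r of 0.961 and 0.960 and 0.856 and 0.836 within groups. Sult1e1 was most like Pdgfrl (0.901, within groups 0.756) and Gimap4 (0.892, within groups 0.696). Sult2a7 was most like A1bg (0.917, within groups 0.593) and Cyp2b13 (0.906, within groups 0.729), both known as female-biased liver genes. Both cleared the filter only with the help of CR mice and were near 0 in Con mice, so their r over all libraries largely restates the rise under CR. Cyp2b13 was at 41.0, 2.92 and 1.49 FPKM in CR replicates 1, 2 and 3 of day 30, so its r leans on replicate 1. Sult5a1 was most like Aatf (0.926, within groups 0.938) and Pced1a (0.909, within groups 0.710).

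Genes for sulfate supply and the donor PAPS did not move as a block. Of 19 tested genes for sulfate supply and PAPS, 3 rose and 3 fell at day 25, and 4 rose and 4 fell at day 30, with a median log2 fold change at day 30 of -0.09 beside -0.07 for all genes. The shares of all genes tested that passed in either direction were 14.9% at day 25 and 24.7% at day 30. Csad, an enzyme of taurine synthesis from cysteine, was at 155.5 ± 55.4 FPKM in Con and 30.0 ± 27.6 in CR mice at day 30 (log2 fold change -2.70, SE 0.522, adjusted p = 0.00515) and at 155.9 ± 42.2 and 116.9 ± 25.4 at day 25, where it did not pass. Got1, the cytosolic aspartate aminotransferase, rose at both days, from 98.8 ± 33.7 to 319 ± 93.2 FPKM at day 30 (1.70, SE 0.281, adjusted p = 0.00216). Papss2, a synthase of the donor PAPS, was at 64.3 ± 17.8 FPKM in Con and 97.1 ± 12.5 in CR mice at day 30 (0.61, SE 0.192, adjusted p = 0.0470). Papss2 is named after its values were seen, because it makes the donor. The other PAPS synthase, Papss1, was at 3.37 ± 0.808 and 2.60 ± 0.0475 FPKM and did not pass (-0.27, SE 0.140, adjusted p = 0.214).

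Of 11 tested sulfatase genes, whose enzymes remove sulfate, 0 rose and 4 fell at day 30, with 3 falls at day 25, beside the same shares of 24.7% and 14.9% of all genes. Arsa, the lysosomal cerebroside sulfatase, was at 20.2 ± 2.84 FPKM in Con and 9.37 ± 4.46 in CR mice at day 30 (log2 fold change -1.12, SE 0.243, adjusted p = 0.00931). Arsg, a lysosomal sulfatase of heparan sulfate breakdown, was at 7.57 ± 0.887 and 3.30 ± 0.808 FPKM (-1.01, SE 0.158, adjusted p = 0.00162). Among 9 tested Golgi sulfotransferases, which modify sugars and tyrosines and are a separate family, 3 rose and 1 fell at day 30, none by a log2 fold change of 1.

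Of 22 tested receptors and factors known to act on sulfotransferase genes, 5 rose and 1 fell at day 25, and 5 rose and 2 fell at day 30, beside the 14.9% and 24.7% of all genes that passed in either direction. Cux2 cleared the filter only with the help of CR mice. Among the remaining 21, 5 rose and 1 fell at day 25, and 4 rose and 2 fell at day 30. Esr1, the estrogen receptor alpha, rose from 3.41 ± 0.277 to 8.59 ± 1.60 FPKM at day 30 (1.11, SE 0.173, adjusted p = 0.00155). Cux2, a repressor of male-biased liver genes, rose from 0.114 ± 0.0492 to 3.62 ± 1.84 FPKM (1.98, SE 0.536, adjusted p = 0.0261), and it also stands in the list of female-biased genes.

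Sex-biased liver genes were measured beside the sulfotransferases because part of the family is sex-biased. Of 20 female-biased genes listed, 15 were tested. Cyp3a41a, Cyp3a41b, Cyp3a44, Hao2 and Prom1 missed the filter. Their highest values in the CR mice of day 30 were 0.025, 0.025, 0.352, 0.084 and 0.232 FPKM, so the counts leave out genes that stayed low there. Of the 15 tested, 8 rose at day 25 and 14 at day 30 and none fell, with median log2 fold changes of 0.88 and 1.86. Of these 15, 7 cleared the filter only with the help of CR mice, and of the remaining 8, 4 rose at day 25 and 7 at day 30. Cyp2b9, a cytochrome P450, rose at day 30 from 0.132 ± 0.0969 to 148.0 ± 42.0 FPKM. Of 16 tested male-biased genes, 9 fell at day 25 and 14 at day 30 and none rose, with medians of -1.34 and -2.86. Among all genes tested, 14.9% passed at day 25 and 24.7% at day 30 in either direction, with medians of -0.04 and -0.07. Serpina1e, a serpin, fell from 3244 ± 687.6 to 57.5 ± 58.4 FPKM and Selenbp2 from 138.4 ± 49.9 to 1.02 ± 0.858. Other genes named under the rule had log2 rises, namely Cyp2b13 (2.88), Acot3 (2.78), Cyp2a4 (2.51) and Cux2 (1.98), or log2 falls, namely Mup20 (-4.40), Mup21 (-4.32), Elovl3 (-3.94) and Hsd3b5 (-3.62). Reads of the Mup, Serpina1 and Cyp2b genes could have been split between near-identical copies.

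Among the CR mice of day 30, replicate 1, the highest for Sult1e1, Sult2a7 and Sult3a1, was highest for 9 of the 15 female-biased genes and lowest for 13 of the 16 male-biased genes. Replicate 2, the lowest for those sulfotransferases, was highest for 15 of the 16 male-biased genes. The female-biased genes did not follow the order below replicate 1: they were lowest in replicate 3 for 7 genes, in replicate 2 for 5 and in replicate 1 for 3. The part of this shared order in the sulfotransferase values was not tested.

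**Figure D4:**
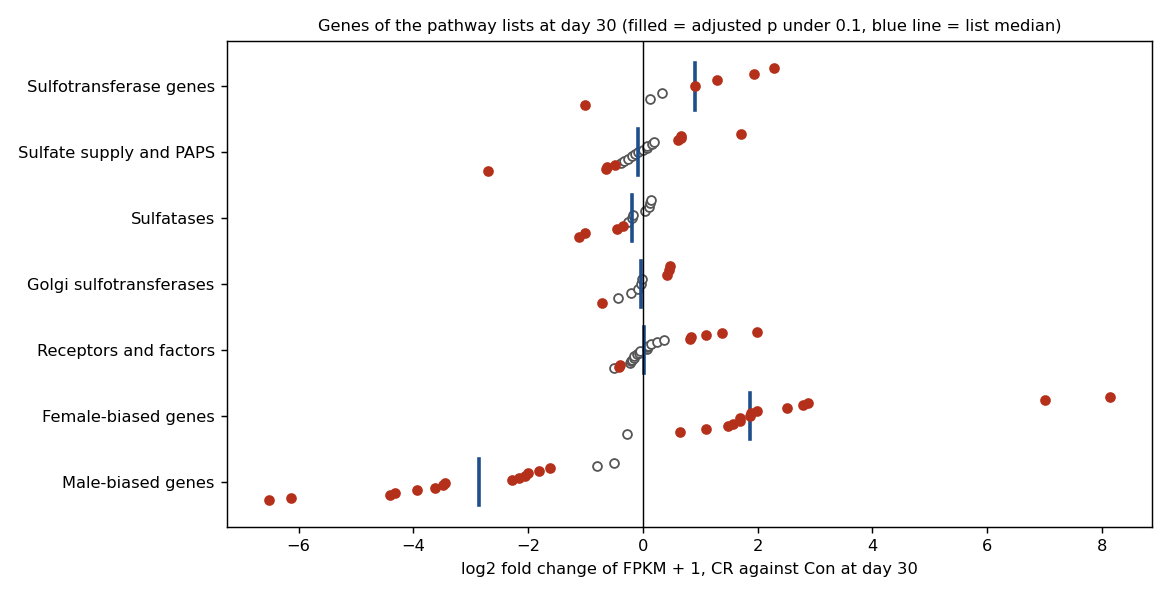
Log2 fold change of FPKM + 1 for CR against Con at day 30 of each tested gene in 7 lists, 1 point per gene, filled where the adjusted p was under 0.1, with a line at the median of each list. Female-biased genes lie to the right (median 1.86), male-biased genes to the left (-2.86), and the sulfotransferases have 4 filled points above 0 and 1 below, with a median of 0.91. Sult1e1 and 7 of the 15 female-biased genes cleared the filter only with the help of CR mice, and the medians include them.

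Markers of other liver cells were counted beside all genes tested, of which 14.9% passed at day 25 and 24.7% at day 30. Of 12 Kupffer cell and macrophage markers, 8 fell at day 25 and 1 rose at day 30, and their summed FPKM was 86.4 to 143.4 in Con and 53.3 to 68.5 in CR mice at day 25, and 76.2 to 110.1 in Con and 69.7 to 100.9 in CR mice at day 30. Of 10 sinusoidal endothelial markers, 6 rose at day 30, with a summed FPKM of 57.6 to 61.5 in Con and 75.7 to 86.4 in CR mice. Of 8 tested stellate cell markers, 3 rose at day 30, with a summed FPKM over the list of 52.5 to 63.9 in Con and 73.6 to 88.1 in CR mice. Only 2 cholangiocyte markers could be tested and neither was called, and no lymphocyte or neutrophil marker passed the filter. The summed FPKM of the 9 lymphocyte and neutrophil markers in the table was 1.71 to 2.21 in Con and 0.464 to 0.976 in CR mice at day 25, and 1.55 to 3.82 and 0.524 to 2.17 at day 30. The defining markers Cftr and Ly6g were under 0.1 FPKM in every library. Of 5 erythroid markers, 1 fell at day 30, with a summed FPKM of 193 to 499 in Con and 334 to 1015 in CR mice. The part of these cells in the sulfotransferase values was not tested.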

How the data were processed

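RNA-Seq data of 12 livers, 3 in each of 4 groups, were analyzed. Per the labels, the authors sequenced 100 bp paired-end reads on a single HiSeq lane, processed them with CASAVA 1.8.2 and FastQC and mapped them to mm10 with BWA. Per the file headers, the deposited FPKM values are HOMER exon reads, condensed to 1 transcript per gene, without scaling between libraries, and the versions of BWA and HOMER were not given in the sources used here. Reads and library depth were computed back from low FPKM values, which are multiples of what 1 read adds (100% of 1500 low values per library whole, within 0.1 read). Between 78.1% and 84.3% of reads lay on exons.

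log2(FPKM + 1) was fitted with limma 3.58.1 in R 4.3.3 for genes that reached an FPKM of 1 in 3 or more libraries, in a single model of the 4 groups with a trend in the empirical Bayes step, or with day as a covariate over both days. Tests are 2-sided with Benjamini-Hochberg adjustment over all genes tested and a threshold of 0.1. The model was tested on simulated data. Nothing says how the mice of a group were processed apart, so p-values measure the spread between these mice.

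The 10 genes, the lists and the tests were chosen with earlier results of these data known. Named besides the 10 are list genes past both thresholds, at most 6 per list by the size of the change at day 30, and the 2 most similar genes of each member that passed at day 30. Some items under this rule are not reported here. The labels do not tell the 3 Con libraries of day 30 apart, so they carry the names of their columns. At day 25 same-numbered Con and CR mice deviated together (correlations 0.368, 0.306 and 0.106), the numbers coming from the sample titles. Alternatives covered the pseudocount, filter, scaling, moderation, threshold, recovered reads, replicate block and each mouse. Transcript comparisons used GENCODE M21 and promoters RefSeq on GRCm38. Tables and figures used Python 3.11.15, pandas 2.3.3, numpy 2.4.6, scipy 1.17.1 and matplotlib 3.10.9.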

Additional observations from a re-analysis of the deposited data

How the results depend on the processing

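The number of sulfotransferase genes called at day 30 stayed between 4 and 6 under every alternative run. At day 25 it was 2 in place of 1 under median-ratio scaling and quantile normalization, which added Sult1c2, and 2 with only the day 25 libraries, which added Sult1e1. Over both days it was 3 in place of 6 when a 2-fold change was also asked for. Leaving out each library in turn gave 0 to 2 calls at day 25, 4 to 6 at day 30, 4 to 7 over both days and 0 to 2 between days in CR mice, and 0 calls throughout between days in Con mice and for the difference between days. The log2 fold change of Sult5a1 at day 25 ran from -0.27 to 0.20 with single libraries left out and turned upward without Con replicate 2 (0.070) or CR replicate 3 (0.20), that of Sult1c2 at day 30 ran from -0.069, without CR replicate 2, to 0.26, and the difference between days of Sult1b1 ran from -0.31 to 0.15 and turned upward without library Con12 (0.15) or CR replicate 1 of day 30 (0.014). None of these values had passed. The summed level of the 10 genes over 12 libraries was 405 as FPKM and 964 as TPM, a change of unit. The CR to Con ratio of Sult2a FPKM at day 30 turned from 6.23 to 0.762 when all Sult2a genes of the table were summed. With the replicate block at day 25, 1 gene was called as before, Sult1d1, while 675 of all genes tested rose and 1073 fell, in place of 593 and 989, a split that was 929 and 799 under median-ratio scaling. The block changed no call of a sulfotransferase gene. Between CR mice of the 2 days, same-numbered libraries shared only a number (correlations -0.382, 0.299 and 0.0780), and the block gave 0 calls, as without it. No paired analysis was possible at day 30 because the Con columns carry no replicate number of the labels. Depth limits Sult2a1, Sult2a2 and Sult3a1, with at most 8, 5 and 140 reads in a group. The cause of these shifts was not tested.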
